A study of Mus musculus with 16 samples.

Results

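The transcripts of 9 adhesion molecules were followed in mouse blood neutrophils: Selplg, the integrin chains Itgal, Itgam, Itgax and Itgb2, the ligand Icam1, and Cd44, Pecam1 and Cd47. They were taken by gene symbol, by a rule that uses no measured value, and are 9 of the 23337 gene symbols in the deposited count table. The choice of these genes was made with earlier results of these data known, so it was not blind to them. All 9 passed the filter on low counts that left 9213 genes for testing. The cells came from the blood of 8 week old mice of strain C57/Bl6 and were purified by magnetic negative selection. Their genotype was either Ltbrfl/fl x Mrp8-Cre (LTβRΔN), in which Cre driven by the Mrp8 promoter removes the lymphotoxin β receptor from neutrophils, or Ltbrfl/fl Cre- (control littermates, which carry the same floxed allele and no Cre). Of the 16 libraries, 7 were control (3 unstimulated, 4 stimulated) and 9 were LTβRΔN (4 unstimulated, 5 stimulated). The treatment protocol describes 2 h of culture with TNF (100 ng/ml), IL-6 (50 ng/ml) and GM-CSF (100 ng/ml), with soluble LIGHT, a ligand of the receptor, at 500 ng/ml in part of the cultures. In the design text the cytokines themselves are what was added or withheld. What a given library received is not labelled beyond this, so groups are called stimulated and unstimulated as labelled. The labels do not say that replicates came from separate mice, and p-values therefore measure the spread between these libraries, which may be technical.

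Neutrophils leave the blood in steps. They roll on selectins through PSGL-1, the glycoprotein encoded by Selplg, and then arrest when β2 integrins bind ICAM-1 on the vessel wall. Each β2 integrin pairs the common chain CD18 (Itgb2) with a chain of its own, CD11a in LFA-1 (Itgal), CD11b in Mac-1 (Itgam) or CD11c (Itgax). CD44 binds hyaluronan and can also bind E-selectin, PECAM-1 (Pecam1) takes part in the passage between endothelial cells, and CD47 (Cd47) is the ligand of the inhibitory receptor SIRPα. ICAM-1 is best known on endothelium, where cytokines induce it through NF-κB, but leukocytes make it too.

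Total counts ranged from 1094335 to 11932653 per library (median 6429522), and stimulated LTβRΔN libraries had the lowest median at 2408608. Values below are CPM, counts brought to a common library total with TMM scaling factors, unless stated otherwise. Groups were compared with edgeR's quasi-likelihood test on the counts, and a gene passed where its p adjusted over all 9213 tested genes was under 0.05. Ltbr, the targeted gene, was at 84.6 to 154 CPM in control and at 0.705 to 18.1 CPM in LTβRΔN libraries, lower in LTβRΔN neutrophils with a log2 fold change of -3.80 without (edgeR adjusted p = 1.09e-04) and -3.71 with stimulation (edgeR adjusted p = 3.83e-05). The cytokine response genes Cish and Nfkbia were higher in every stimulated than in every unstimulated library of either genotype, Nfkbia by log2 fold changes of 5.001 in control (edgeR adjusted p = 5.27e-14) and 4.85 in LTβRΔN neutrophils (edgeR adjusted p = 4.31e-15). The 7 mature neutrophil markers analysed summed to between 45706 and 76266 CPM. Of the markers of other cells analysed, 4 of 5 for B cells, 2 of 7 for T and NK cells, 2 of 7 for monocytes and macrophages and 3 of 5 for endothelial cells were at 0 counts in all 16 libraries. The T and NK cell markers summed to 4.53 to 16.4 CPM, mostly from Cd3d at 2.11 to 14.9 CPM, and the monocyte and macrophage list held Csf1r at 224 to 439, Cd68 at 174 to 301 and Ly6c2 at 92.1 to 158 CPM. Library titles carry the index S520 or S521. All unstimulated LTβRΔN libraries have S520 and all stimulated LTβRΔN libraries S521, so in this genotype index and treatment label cannot be told apart, and among controls 1 unstimulated library, number 73, has the index of the stimulated ones.

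Per kilobase of annotated exon, the 9 transcripts covered a wide range of levels. Over the 16 libraries the median was 641 CPM per kb for Selplg, 371 for Itgb2, 251 for Cd44, 103 for Itgal, 67.6 for Itgam, 42.6 for Cd47, 31.7 for Icam1, 5.996 for Itgax and 0.816 for Pecam1. Apart from Icam1, the order held in nearly every library: Selplg was above Itgb2, Cd44 above Itgal, Itgal above Itgam, Itgam above Cd47 and Itgax above Pecam1 in 16 of 16 libraries, and Itgb2 was above Cd44 in 15. Itgam shares 66.3% of its 50-base transcript windows with Gm49368. Its reads could have been lost in counting, and its place in the order may be too low. Cd47 was above Icam1 in 9 libraries and Icam1 above Itgax in 11, so the place of Icam1 differed between libraries. In stimulated control libraries Icam1 was at 67.1 ± 19.9 CPM per kb (SD, n = 4), beside 66.5 ± 9.54 (SD, n = 4) for Itgam, and in unstimulated control libraries at 3.75 ± 0.810 (SD, n = 3), below Itgax at 6.42 ± 0.511 (SD, n = 3). With the longest transcript as the length, Icam1 (54.5 CPM per kb) came before Cd47 (50.9 CPM per kb).

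**Figure D1:**
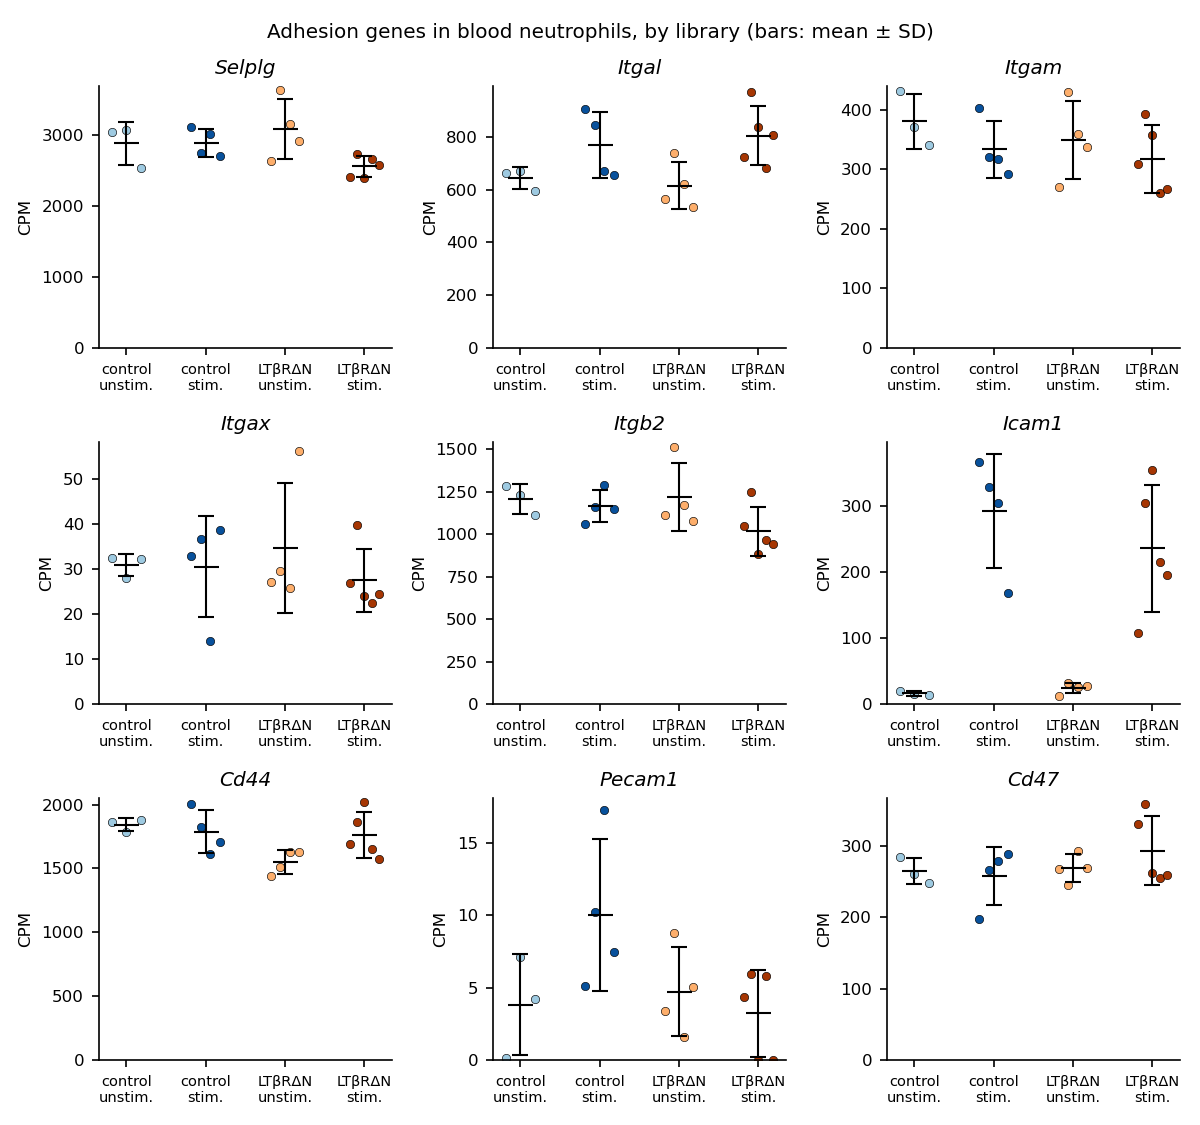
Level in CPM (vertical axes, linear and from 0) of each of the 9 adhesion genes, with 1 point per library in the 4 groups of 3, 4, 4 and 5 libraries and black bars for the mean ± SD. Icam1 was at most 31.2 CPM in the 7 unstimulated and at least 108 CPM in the 9 stimulated libraries, while the points of the other 8 genes overlap between the treatment labels.

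Icam1 was the only one of the 9 genes that passed this test by treatment label, and it rose in both genotypes. In unstimulated control libraries 71, 72 and 73 it was at 20.4, 14.95 and 13.8 CPM, and in stimulated control libraries 80 to 83 at 367, 330, 306 and 168 CPM. The groups did not overlap, and library 83 was the lowest of the stimulated controls. Its log2 fold change of 4.15 (edgeR adjusted p = 4.00e-08, standard error 0.376) corresponds to 17.7-fold with a 95% confidence interval from 10.3 to 30.4. Among all tested genes, 3.48% passed this threshold in this comparison and 2.82% were higher. An exact two-sided permutation test of the Icam1 level gave p = 0.0571, the smallest that 4 libraries against 3 allow.

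In LTβRΔN neutrophils, unstimulated libraries 67 to 70 had 12.4, 31.2, 25.8 and 27.5 CPM of Icam1. Stimulated libraries 75 to 79 had 108, 305, 356, 216 and 195 CPM, so these groups did not overlap either, with library 75 the lowest of the stimulated ones. The log2 fold change was 3.33 (edgeR adjusted p = 1.11e-07, standard error 0.324), a 10.04-fold difference with a 95% confidence interval from 6.31 to 15.98, and the exact permutation p was 0.0159, the smallest that 5 libraries against 4 allow. In this comparison 3.73% of all tested genes passed and 2.98% were higher, and the groups stood apart upward for 4.61% of them, beside 6.58% in the control comparison. Leaving out each library in turn gave log2 fold changes from 4.02 to 4.34 in control and from 3.09 to 3.51 in LTβRΔN neutrophils. Among controls with index S521 alone, where 1 unstimulated library remains and is assumed to vary like the others, the log2 fold change was 4.40 (edgeR adjusted p = 2.23e-04). ICAM-1 is also made by monocytes and endothelial cells. The 7 monocyte and macrophage markers analysed summed to 672 to 714 CPM in unstimulated and 550 to 649 CPM in stimulated control libraries, and to 608 to 862 and 538 to 630 CPM in LTβRΔN libraries. The 5 endothelial markers, of which Cdh5, Tek and Emcn were at 0 throughout, summed to at most 3.52 CPM in any library. The part of either cell type in the Icam1 values was not tested.

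Icam1 lies on chromosome 9 of GRCm38 from 21015985 to 21028817, on the plus strand. The antisense gene Gm47079 overlaps its exons, and whether the authors' counting used strand is not given in the sources used here, so reads of this pair cannot be told apart. Of the 50-base windows along the Icam1 transcripts, 13.1% also occur in transcripts of other genes. Promoters of 5 of the 9 genes were matched in the RefSeq table on GRCm38.p6 (Cd44, Itgam, Itgax, Icam1 and Cd47), as windows of 300 bases around the start. They were searched on both strands for 4 short motifs: GG, any 3 bases, TTCC (NF-κB type), TTC, any 3 bases, GAA (STAT type), GAGGAA (PU.1 or ETS type) and GGGCGG (Sp1 type). Icam1, the member that rose, and Itgam, a myeloid integrin gene that did not pass the test, are printed here as the 250 bases before their starts, chr9:21015690-21015939 and chr7:128062390-128062639, both on the plus strand. Capitals mark NF-κB type matches in Icam1 and PU.1 or ETS type matches in Itgam.
Icam1: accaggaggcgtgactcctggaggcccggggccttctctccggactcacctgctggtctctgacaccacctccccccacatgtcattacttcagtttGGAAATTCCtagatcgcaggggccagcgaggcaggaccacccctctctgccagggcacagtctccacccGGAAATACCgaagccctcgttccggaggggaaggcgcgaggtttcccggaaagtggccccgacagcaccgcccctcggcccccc
Itgam: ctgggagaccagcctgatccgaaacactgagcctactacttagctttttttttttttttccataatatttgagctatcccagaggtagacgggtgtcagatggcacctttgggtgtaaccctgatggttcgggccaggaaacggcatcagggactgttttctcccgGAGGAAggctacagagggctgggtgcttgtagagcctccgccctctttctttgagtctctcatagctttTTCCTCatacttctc
The Icam1 window held 2 NF-κB type matches, which begin 153 and 84 bases before the start, 1 STAT type match 42 bases before it and 2 Sp1 type matches, none of them overlapping, and no PU.1 or ETS type match. The Itgam window held 3 PU.1 or ETS type matches, of which 2 begin 84 and 15 bases before the start and the other lies after it, outside the printed stretch, 1 Sp1 type match and none of the NF-κB or STAT type. Cd44 had 2 PU.1 or ETS type matches and 1 Sp1 type match, Cd47 had 3 Sp1 type matches, and Itgax had none of the 4 motifs. Of 32851 promoters of this length, 18.5% held an NF-κB type match, 8.3% a STAT type, 28.3% a PU.1 or ETS type and 35.7% an Sp1 type match. Such matches describe letters and do not show that a factor binds.

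**Figure D2:**
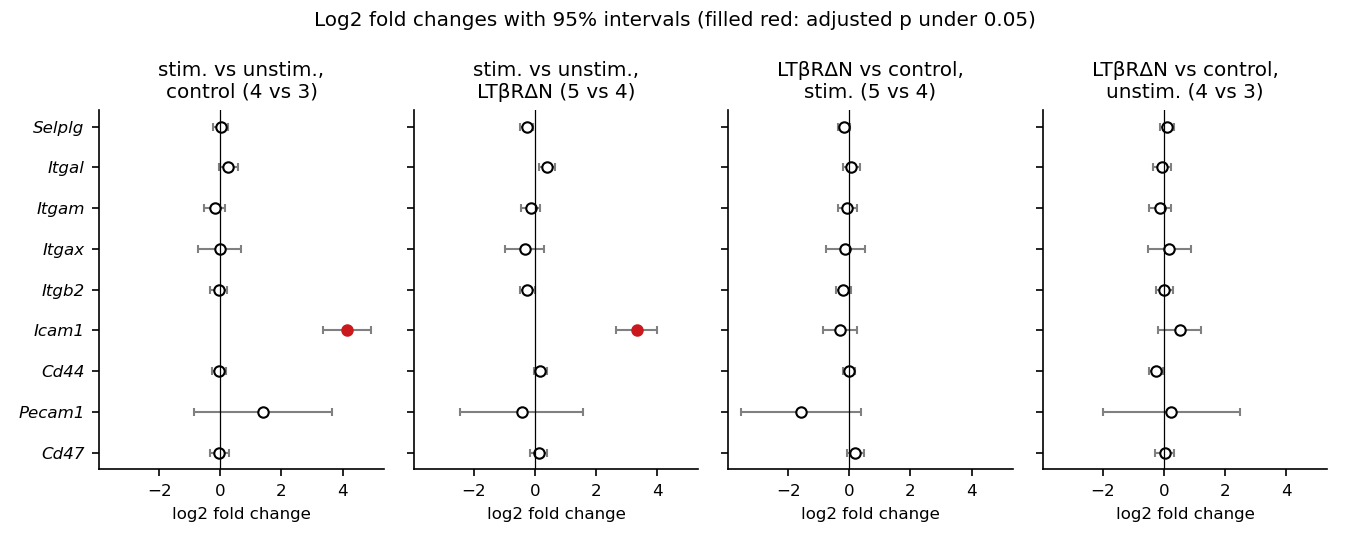
Log2 fold change (horizontal axes) of the 9 genes in 4 comparisons, with 95% confidence intervals from the edgeR model and filled red points for adjusted p under 0.05. Icam1 stands at 4.15 in control and 3.33 in LTβRΔN neutrophils by treatment label, no gene is filled in the genotype comparisons, and the intervals of Pecam1 are the widest.

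None of the 4 β2 integrin chain genes passed the adjusted threshold in either genotype, and their log2 fold changes by treatment label lay between -0.33 and 0.39. Itgal, which encodes the chain particular to LFA-1 (chromosome 7, 127296260 to 127335138), was at 664, 670 and 596 CPM in unstimulated and at 906, 846, 669 and 653 CPM in stimulated control libraries, with overlap between the groups. Its log2 fold change was 0.26 (95% confidence interval -0.05 to 0.56, edgeR adjusted p = 0.581). In LTβRΔN neutrophils it was at 564, 739, 622 and 536 CPM without and at 724.5, 970, 838, 680 and 805 CPM with stimulation. There the unstimulated library 68 lay above the 2 lowest stimulated libraries, 75 and 78. The log2 fold change was 0.39 (edgeR adjusted p = 0.123, unadjusted p = 0.00669, standard error 0.130), and the exact two-sided permutation p was 0.0476. This difference passed the adjusted threshold with DESeq2's Wald test (0.41, adjusted p = 0.0487), with a filter of 10 counts in every library (0.41, edgeR adjusted p = 0.0474) and without library 68, which had the fewest counts (0.48, edgeR adjusted p = 0.0475). It also passed with a replicate block (0.38, edgeR adjusted p = 0.0230). With library totals as the only scaling it was 0.20 (edgeR adjusted p = 0.528), with the library index as a covariate 0.55 (edgeR adjusted p = 0.9999), and without library 76 it was 0.31 (edgeR adjusted p = 0.254).

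Itgam, the CD11b gene (chromosome 7, 128062640 to 128118491), was at 381 ± 46.2 CPM (SD, n = 3) in control libraries without and 334 ± 47.9 CPM (SD, n = 4) with stimulation. LTβRΔN libraries had 349 ± 65.9 CPM (SD, n = 4) without and 318 ± 57.7 CPM (SD, n = 5) with it, and the log2 fold changes of -0.19 (edgeR adjusted p = 0.825) and -0.13 (edgeR adjusted p = 0.836) were within the spread. Gm49368 overlaps Itgam on the same strand and shares 66.3% of its 50-base windows, so the authors' counting could have lost reads to that pair. Itgb2, the gene of the shared CD18 chain (chromosome 10, 77530252 to 77565708), had a log2 fold change of -0.05 in control (95% confidence interval -0.33 to 0.22, edgeR adjusted p = 0.965). In LTβRΔN neutrophils Itgb2 was at 1113, 1512, 1170.4 and 1081 CPM without and at 1047, 1251, 883, 964 and 941 CPM with stimulation. The stimulated libraries reached lower but the groups overlapped, with a log2 fold change of -0.26 (edgeR unadjusted p = 0.0402, edgeR adjusted p = 0.346).

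Itgax, the CD11c gene (chromosome 7, 128129547 to 128150657), was the least abundant of the 4 chains, with 14.0 to 56.0 CPM. Its log2 fold changes by treatment label were -0.02 in control (edgeR adjusted p = 0.995) and -0.33 in LTβRΔN neutrophils (edgeR adjusted p = 0.775). Single libraries set much of its spread, since stimulated control library 82 was at 14.0 CPM beside 32.8 to 38.6 CPM in the other 3, and unstimulated LTβRΔN library 70 was at 56.0 CPM beside 25.8 to 29.6 CPM. Without library 70 the LTβRΔN value was 0.018, and without library 82 the control value was 0.22. The transcripts of Itgax share 8.02% of their 50-base windows with Itgad, which had at most 12 counts in any library.

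Ratios of counts within a library do not depend on its scaling, and those of the integrin chains were computed after the values above had been seen, as a description without a test. Itgal had 1.54, 1.81 and 1.75 counts per Itgam count in unstimulated control libraries and 2.25, 2.63, 2.10 and 2.23 in stimulated ones. In LTβRΔN libraries the ratios were 2.09, 1.72, 1.73 and 1.58 without and 2.34, 2.46, 2.34, 2.61 and 3.02 with stimulation. In both genotypes every stimulated library was above every unstimulated one. How often the ratios of other gene pairs stand apart in this way was not examined. Itgam counts could have lost reads to Gm49368, as given above. Itgb2 counts per count of Itgal, Itgam and Itgax together were 1.16 to 1.29 in unstimulated and 0.724 to 1.0005 in stimulated LTβRΔN libraries, again without overlap. In control libraries the same ratio was 1.14 to 1.15 without and 0.791 to 1.29 with stimulation, so there the stimulated libraries lay on both sides of the unstimulated ones. The ratio of Itgax to Itgam counts overlapped between the treatment labels in both genotypes. In control libraries it was 7.49 to 9.43% without and 4.39 to 13.2% with stimulation. In LTβRΔN libraries it was 6.89 to 16.6% without and 6.69 to 10.1% with stimulation.

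**Figure D3:**
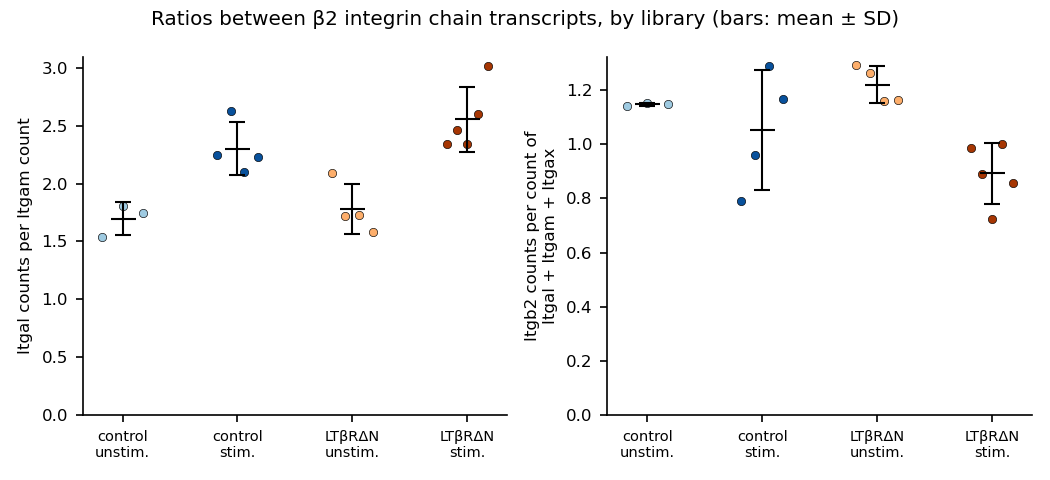
Ratios of deposited counts (vertical axes, linear and from 0) of Itgal to Itgam, left, and of Itgb2 to the 3 α chains together, right, with 1 point per library in 4 groups and black bars for the mean ± SD. The Itgal to Itgam ratio was at most 2.09 in unstimulated and at least 2.10 in stimulated libraries over both genotypes, and the right ratio separates the treatment labels in LTβRΔN libraries only. Both ratios were formed after the values had been seen.

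Selplg and Cd44, the abundant ligands for selectins among the 9, did not pass the threshold in either genotype. Selplg (chromosome 5, 113818536 to 113832644) was at 3037, 3074 and 2534 CPM in unstimulated and at 3107, 2745, 3011 and 2697 CPM in stimulated control libraries, a log2 fold change of 0.0043 (edgeR adjusted p = 0.997, standard error 0.115). In LTβRΔN neutrophils it was at 2638, 3627, 3153 and 2908 CPM without and at 2408, 2733, 2398, 2666 and 2579 CPM with stimulation. All but 1 of these unstimulated libraries were above all stimulated ones, and the log2 fold change was -0.27 (edgeR adjusted p = 0.196, unadjusted p = 0.0143, standard error 0.101). The exact two-sided permutation p was 0.0476. With library totals as the only scaling, which moved the median of all tested genes in this comparison to -0.21, Selplg (-0.46, edgeR adjusted p = 0.0135) and Itgb2 (-0.45, edgeR adjusted p = 0.0383) passed the threshold, and with the library index as a covariate the Selplg value was 0.0016. Cd44 (chromosome 2, 102811141 to 102901665) was at 1841 ± 51.3 CPM (SD, n = 3) in control libraries without and 1788 ± 169 CPM (SD, n = 4) with stimulation, and at 1552 ± 92.4 CPM (SD, n = 4) and 1760.3 ± 181 CPM (SD, n = 5) in LTβRΔN libraries. There Cd44 had a log2 fold change of 0.18 (95% confidence interval -0.02 to 0.38, edgeR adjusted p = 0.472).

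Cd47 (chromosome 16, 49800533 to 49915010) did not pass the test in either genotype and had group means from 258 ± 40.9 (SD, n = 4) CPM in stimulated control to 294 ± 48.2 (SD, n = 5) CPM in stimulated LTβRΔN libraries. Its log2 fold changes by treatment label were -0.04 in control (95% confidence interval -0.35 to 0.28, edgeR adjusted p = 0.982) and 0.13 in LTβRΔN neutrophils (95% confidence interval -0.16 to 0.41, edgeR adjusted p = 0.825).

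Pecam1 (chromosome 11, 106654217 to 106750628) was close to the lower limit of these libraries. It had 2, 63 and 30 counts in unstimulated and 38, 43, 174 and 60 counts in stimulated control libraries, and 22, 11, 7 and 59 counts in unstimulated LTβRΔN libraries. In stimulated LTβRΔN libraries it had 7, 48, 0, 13 and 0 counts, and the counts of 0 in libraries 77 and 79 allow levels of up to 2.11 and 1.16 CPM, a limit of 3 counts that covers counting error only. Stimulated control library 82 had the highest level, 17.2 CPM. That library also had the highest sum of 6 platelet markers, 206 CPM beside 6.23 to 55.4 CPM in the other 15, and the highest sum of the immature neutrophil markers, 3273 CPM beside 1683 to 2608 CPM. Platelets express PECAM-1, and the part of these cells in the Pecam1 values was not tested. Fewer cells of a type and less RNA per cell cannot be told apart in bulk libraries. The log2 fold change by treatment label was 1.39 in control neutrophils (95% confidence interval -0.87 to 3.65, edgeR adjusted p = 0.771), 0.99 without library 82 and between 0.81 and 2.20 with each library left out in turn. It was -0.44 in LTβRΔN neutrophils (95% confidence interval -2.45 to 1.57, edgeR adjusted p = 0.943).

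Over the 9 genes, the median log2 fold change by treatment label was -0.02 in control and -0.13 in LTβRΔN neutrophils, beside -0.02 and -0.03 over all tested genes. Of the 9, 1 in control and 4 in LTβRΔN neutrophils (Icam1, Itgal, Selplg and Itgb2) had an unadjusted p under 0.05, beside 11.4% and 13% of all tested genes. The groups did not overlap for Icam1 alone in either genotype, while 12.7% and 7.28% of all tested genes did not overlap. In simulated libraries made like those of the control comparison, 6.82% of the genes over 100 CPM that had been changed by 1.5-fold were recovered, 87.5% of those changed by 2-fold and 100% of those changed by 4-fold. These shares are of 44, 32 and 25 genes drawn from all tested genes, each with its own spread. They are not recovery rates for the 9 genes.

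The genotypes were compared within each treatment label, and 0 of the 9 genes passed the adjusted threshold of edgeR's test in either comparison, beside 0.0217% of all tested genes in each. DESeq2's Wald test also called 0 of the 9. Among stimulated libraries, with 5 LTβRΔN and 4 control libraries of 1 index, 0 of the 9 had an unadjusted p under 0.05 beside 6.41% of all tested genes, and the groups overlapped for all 9 while 1.31% of all tested genes stood apart. Icam1 had a log2 fold change of -0.31 there (edgeR adjusted p = 0.956, standard error 0.274). Its fold of 0.808 has a 95% confidence interval from 0.545 to 1.20, and the 2 lowest stimulated libraries, 75 and 83, belong to different genotypes. The other values lay between -1.58 for Pecam1 and 0.19 for Cd47, and the Pecam1 value was -1.19 without library 82. Selplg had a log2 fold change of -0.18 (95% confidence interval -0.39 to 0.03, edgeR adjusted p = 0.842), with an exact permutation p of 0.0317 that is not adjusted for the number of comparisons. For Pecam1 the exact permutation p was 0.0476, likewise not adjusted.

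Among unstimulated libraries, 1 of the 9 had an unadjusted p under 0.05, beside 2.8% of all tested genes. This was Cd44, at 1863, 1782 and 1877 CPM in control and at 1440, 1512, 1628 and 1628 CPM in LTβRΔN libraries. All LTβRΔN libraries were below all control libraries, which held for 1 of the 9 genes and in the same direction for 3.17% of all tested genes (5.71% in either direction). The log2 fold change was -0.25 (edgeR adjusted p = 1, unadjusted p = 0.0364, standard error 0.111), and the exact permutation p was 0.0571, the smallest possible. Among libraries of index S520 alone the value was -0.24. Icam1 had a log2 fold change of 0.51 (95% confidence interval -0.20 to 1.23, edgeR adjusted p = 1).

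The interaction term, fitted over all 16 libraries, asks whether the response to the treatment label depends on genotype. By edgeR's test 0 of the 9 genes and 0% of all tested genes passed. DESeq2 also called 0, and an unadjusted edgeR p under 0.05 was found for 0 of the 9 and for 3.71% of all tested genes. For Icam1 the rise in LTβRΔN neutrophils differed from that in control neutrophils by -0.82 on the log2 scale (95% confidence interval -1.73 to 0.09, edgeR adjusted p = 0.9999). In the alternative fit with a replicate block this difference was -0.80 with a standard error of 0.260, beside 0.441 in the main fit. There too 0 of the 9 genes passed the adjusted threshold. The comparisons by treatment label share no libraries with each other, but each shares its groups with the genotype comparisons. The interactions of the other 8 genes lay between -1.83 for Pecam1 and 0.22 for Cd44.

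The 9 genes also differed in how much replicate libraries varied. The biological coefficient of variation that edgeR estimated was 12.01% for Cd44, 12.5% for Selplg, 13.9% for Itgb2, 14.8% for Itgal, 15.1% for Cd47 and 16.6% for Itgam. It was 29.5% for Icam1, 32.2% for Itgax and 90.0% for Pecam1, beside a median of 43.2% over all tested genes. The 6 genes with the lowest values were also the 6 with the highest median level per kilobase of exon, though with the longest transcript as length Icam1 takes the place of Cd47 among the latter. Because edgeR draws each estimate toward a trend with abundance, this match may come in part from the method.

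The 9 genes belong to a larger set of leukocyte adhesion genes, listed here as 112 others in 9 classes, of which 88 were tested. In control neutrophils 3 of the 88 rose and 0 fell, and in LTβRΔN neutrophils 2 rose and 0 fell. Among all tested genes 2.82% rose and 0.662% fell in control and 2.98% rose and 0.749% fell in LTβRΔN neutrophils. The median log2 fold changes of the list were 0.05 and -0.05. Cd24a, which encodes a mucin-like glycoprotein that can bind P-selectin, was at 575, 537 and 581 CPM in unstimulated and at 737, 775, 767 and 901 CPM in stimulated control libraries. The groups did not overlap (log2 fold change 0.49, edgeR adjusted p = 0.0137). In LTβRΔN neutrophils Cd24a was at 477 to 584 CPM without and at 735 to 901 CPM with stimulation (log2 fold change 0.65, edgeR adjusted p = 1.81e-04). Syk, the kinase that carries signals from β2 integrins and PSGL-1, was at 315 to 360.1 CPM in unstimulated and at 426 to 634 CPM in stimulated control libraries (log2 fold change 0.61, edgeR adjusted p = 0.0157). In LTβRΔN neutrophils it was at 290.1 to 390 CPM without and 416 to 584 CPM with stimulation (log2 fold change 0.63, edgeR adjusted p = 0.00386).

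B4galt1, a galactosyltransferase that builds the chains carrying selectin ligands, passed in control neutrophils, with 28.3, 22.8 and 26.1 CPM without and 68.2, 53.9, 47.1 and 46.8 CPM with stimulation (log2 fold change 1.07, edgeR adjusted p = 0.0339). In LTβRΔN neutrophils its log2 fold change was 0.51 (edgeR adjusted p = 0.407), and its interaction of -0.56 did not pass (edgeR adjusted p = 0.9999). In control neutrophils these 3 calls lay near the threshold. With each library left out in turn the log2 fold changes were 0.43 to 0.53 for Cd24a, 0.49 to 0.69 for Syk and 0.94 to 1.14 for B4galt1, but Cd24a lost its call without library 71, 72 or 83 (edgeR adjusted p = 0.0576, 0.128 and 0.0535), Syk without 72, 73 or 80 (edgeR adjusted p = 0.125, 0.0806 and 0.0737) and B4galt1 without 71, 72, 73, 80 or 81 (edgeR adjusted p from 0.0648 to 0.211). In LTβRΔN neutrophils Cd24a and Syk kept theirs without any single library, and with the library index as a covariate all 5 calls were lost, with log2 fold changes of 0.45 and 0.58 for Cd24a, 0.66 and 0.69 for Syk and 1.047 for B4galt1. The index effect in that fit rests on unstimulated control library 73 against 71 and 72, which widens the errors. For Cd24a in control the standard error was 0.178, beside 0.118 in the main fit. With library totals as the only scaling, which moved the median of all tested genes in control to -0.27, the control values were 0.25 for Cd24a, 0.37 for Syk and 0.83 for B4galt1 (edgeR adjusted p = 0.251, 0.182 and 0.104), and Syk in LTβRΔN neutrophils was 0.44 (edgeR adjusted p = 0.0522). Syk in control also lost its call when the 2 compared groups were fitted alone (edgeR adjusted p = 0.0514), and B4galt1 with the replicate block (edgeR adjusted p = 0.0675).

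By class, 1 of 7 tested selectins and selectin ligands rose (Cd24a), 1 of 9 genes of selectin ligand synthesis (B4galt1, in control neutrophils) and 1 of 13 genes of integrin signalling (Syk), beside the 2.82% and 2.98% of all tested genes that rose. Single genes of classes this small say nothing about the classes. No gene passed among 10 other integrin subunits, 19 genes of integrin activation, 13 genes of the immunoglobulin superfamily and junctional class, 7 tetraspanins, 3 hyaluronan and ERM genes and 7 shedding genes. Between genotypes 0 of the 88 passed under either treatment label, beside 0.0217% of all tested genes in each comparison. An unadjusted p under 0.05 was found for 2 of the 88 in each, beside 6.41% of all tested genes with and 2.8% without stimulation.

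**Figure D4:**
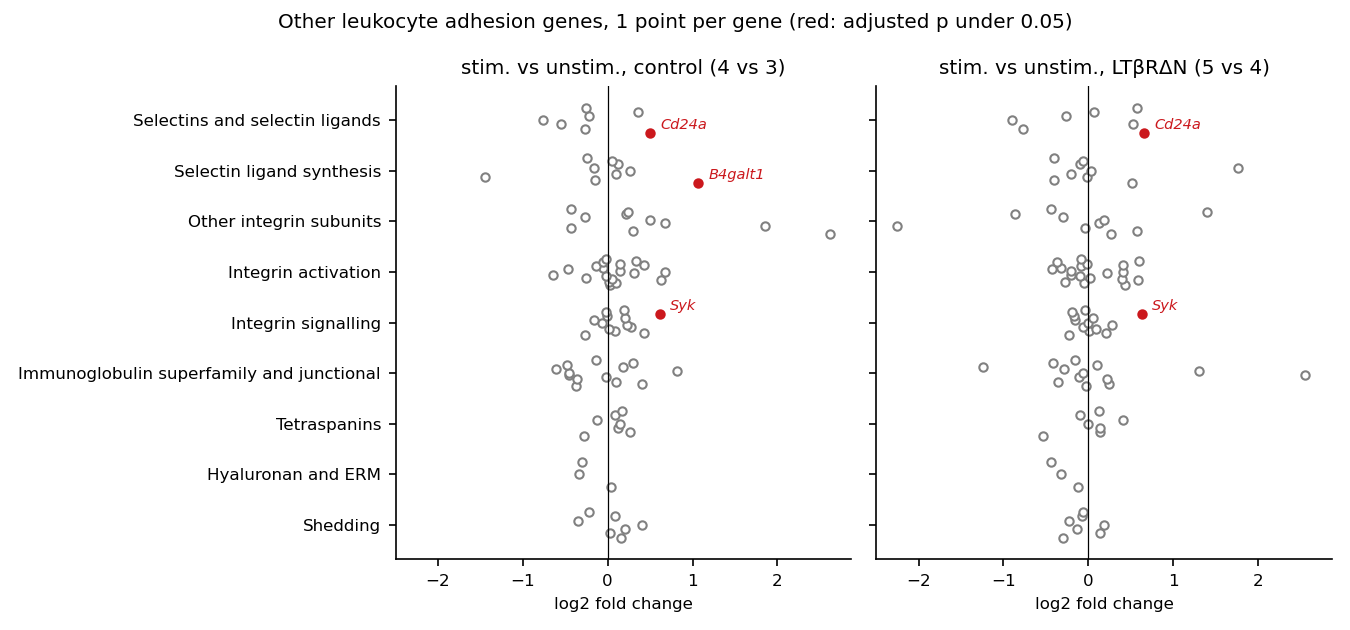
Log2 fold change by treatment label (horizontal axes) of the 88 tested genes of the wider adhesion list in control, left, and LTβRΔN neutrophils, right, in 9 classes with 1 point per gene and red for adjusted p under 0.05. The red points are Cd24a, B4galt1 and Syk at 0.49, 1.07 and 0.61 on the left, and Cd24a and Syk at 0.65 and 0.63 on the right.

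The tested genes whose log2 CPM followed Icam1 most closely over the 16 libraries were Gpr84 (Pearson r = 0.989), a receptor for medium-chain fatty acids that Gm49482 overlaps on the opposite strand, Xbp1 (r = 0.986), a transcription factor of the unfolded protein response, and Ehd1 (r = 0.984), a protein of endosomal recycling. The libraries fall into the treatment labels, which these genes share as a difference, so the coefficients are a description. Because the 3 genes were picked for following Icam1 over these same libraries, their differences by treatment label and shared lowest libraries come in part from that choice. They are no separate support for the Icam1 result. Gpr84 had a log2 fold change by treatment label of 5.84 in control (edgeR adjusted p = 1.40e-07) and 5.04 in LTβRΔN neutrophils (edgeR adjusted p = 1.50e-07), Xbp1 of 1.52 and 1.25, and Ehd1 of 1.84 and 1.63. Library 83 was the lowest stimulated control library, and library 75 the lowest stimulated LTβRΔN library, for Icam1 and for each of the 3 genes. In library 83 Gpr84 was at 60.4 CPM beside 168 to 174 CPM in the other stimulated controls, and in library 75 at 54.2 CPM beside 89.9 to 203 CPM.

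**Figure D5:**
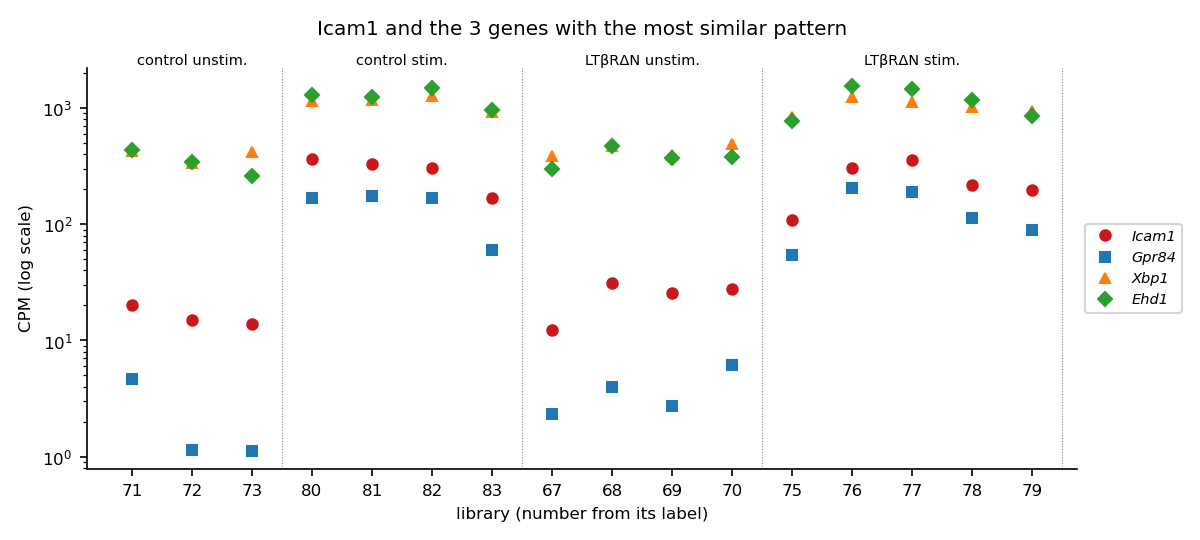
Level in CPM on a log scale (vertical axis) of Icam1, Gpr84, Xbp1 and Ehd1 in each of the 16 libraries (horizontal axis, by the number in the library's label), with dotted lines between the 4 groups. All 4 genes were higher in every stimulated library than in every unstimulated one, and libraries 83 and 75 were the lowest of their stimulated groups. Gpr84, Xbp1 and Ehd1 were picked for their correlation with Icam1 over these libraries.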

How the data were processed

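RNA of purified mouse blood neutrophils was sequenced as 16 single-end libraries. The authors deposited raw counts of reads per gene symbol, without normalization, in 1 table of 23337 genes. Per the submitters' processing notes, reads were processed with Bowtie 1.0.0, TopHat 1.4.1 and HTSeq 0.7.1 and the build mm10, and the strand setting is not given in the sources used here. Samples were grouped by the genotype and treatment labels.

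Genes were kept by edgeR's filterByExpr (minimum count 10, minimum total 15), which left 9213. The quasi-likelihood test of edgeR 4.0.16 (R 4.3.3) was run on a model of all 16 libraries with TMM scaling and a coefficient for every group, p-values were adjusted over all tested genes by Benjamini-Hochberg, and the threshold was 0.05. Single levels (log2 CPM, prior count 2) were also tested with two-sided permutation in scipy 1.17.1, by exact enumeration. DESeq2 1.42.0, other scalings and filters, the library index, a replicate block and each library left out were tried as alternatives, and fits within 1 index were added after seeing the data. The test was first run on simulated counts, made like the control comparison, where 1.5% of 200 genes with a 1.5-fold change, 24.5% of 200 with a 2-fold and 53% of 200 with a 4-fold change were recovered. Pairs of libraries of a group differed by more than sampling noise (chi-square per degree of freedom from 7.12 to 50.4 over 25 pairs).

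The members and all gene lists were chosen with earlier results of these data known. Named genes are the 9 members, listed adhesion genes past the threshold, the 3 genes most like a member that passed, Ltbr, Cish and Nfkbia. Gene positions and exon lengths came from GENCODE on GRCm38, matched by symbol, and promoters from RefSeq on GRCm38.p6. Of 112 listed adhesion genes, 110 were analysed here. Total counts per library, from 1094335 to 11932653, set the precision, and for a count of 0 the level that 3 counts would give is stated. Some genes are not reported here.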

Additional observations from a re-analysis of the deposited data

Results flagged for a closer look

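Among 60 groups of 4 or 5 values examined, 3 held a library far from the others, where chance alone gives about 3. Itgax was at 39.6 CPM in stimulated LTβRΔN library 76, beside 26.8 CPM in the next library. It was at 56.0 CPM in unstimulated LTβRΔN library 70, beside 29.6 CPM in the next. Gpr84, the gene most like Icam1, was at 60.4 CPM in stimulated control library 83, beside 168 CPM in the next.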

How the results depend on the processing

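Icam1 kept its call and direction in control (log2 fold change 3.905 to 4.41 over all settings) and LTβRΔN neutrophils (3.085 to 3.69) in every alternative run. For the other 8 members, the comparisons listed here with a changed sign did not pass the threshold under the settings that changed it.

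With upper-quartile factors, Selplg by treatment label in control was -0.04418 and Cd44 by genotype with stimulation 0.006437. With library totals as the only scaling, which moved the median of all tested genes to -0.27 and -0.21 in the treatment comparisons, the median of the 9 members in control was -0.2619, Selplg was -0.2456, and in LTβRΔN neutrophils Cd44 was -0.003703 and Cd47 -0.05691. In LTβRΔN neutrophils 3 members and 509 genes passed with this scaling, beside 1 member and 344 genes in the main fit. With library totals, Itgb2 and Cd47 by genotype without stimulation were -0.03577 and -0.02932. When every gene with 1 count was kept, Selplg in control was -0.003851 and 4 genes passed by genotype without stimulation. With 10 counts required in every library, 2 members and 368 genes passed in LTβRΔN neutrophils. Under this filter 1 gene passed in each genotype comparison, and Pecam1 gave no value. DESeq2 called 2 members and 476 genes in LTβRΔN neutrophils, and 14 and 4 genes by genotype with and without stimulation.

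With the library index as covariate, 157 genes passed in control, 79 in LTβRΔN neutrophils and 1 in the interaction. This estimate of the index rests on unstimulated control library 73, of index S521, against 71 and 72, of index S520. Itgb2 and Cd47 in control were 0.06542 and 0.0522, Selplg and Itgam in LTβRΔN neutrophils 0.001646 and 0.1033, and Itgb2 and Cd47 by genotype without stimulation -0.04789 and -0.01686. Within index S521, 153 genes passed in control, where Itgb2 was 0.06056 and Cd47 0.04704, and within S520 Itgb2 and Cd47 by genotype were -0.05194 and -0.02036. With the longest transcript as length, Selplg was at 1184, Cd44 at 302.6, Itgal at 129.3 and Cd47 at 50.93 CPM per kb. These values per kb divide the same CPM by a shorter length, for Selplg 2314 in place of 4272 bases. The cause of the other shifts was not tested, other than that fewer libraries or genes enter some fits.

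A further number in the count table's column names is shared by 7 pairs of libraries, whose deviations from the group means correlated by 0.021 to 0.069, with 0 of 7 over 0.1. Each unstimulated library was set against the 4 or 5 stimulated libraries of its genotype, and 6 of 7 were closest to the library with their own number. The share that unrelated libraries would give was not computed, and a shared origin was not tested. What the number marks is not labelled. The main tests took all libraries as independent and did not use these numbers as pairs, so a shared origin would not be accounted for there. With the replicate block, 324 and 343 genes passed by treatment label, 2 members passed in LTβRΔN neutrophils (Itgal 0.38, edgeR adjusted p = 0.0230), Icam1 was 4.09 and 3.29, and in control Selplg was -0.01328, Itgax 0.2224 and Cd44 0.001216.

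Leaving out each library in turn gave 219 to 334 genes in control, 266 to 334 in LTβRΔN neutrophils, 2 to 6 by genotype without stimulation (6 without library 71), 0 to 2 in the interaction (2 without library 71), and 1 to 2 members in LTβRΔN neutrophils. In control, Selplg was -0.08345 to 0.04716, Itgax -0.1561 to 0.2243, Cd44 -0.101 to 0.004924 and Cd47 -0.09553 to 0.07161, and in LTβRΔN neutrophils Itgax was -0.5198 to 0.01765. By genotype with stimulation, Itgal was -0.01349 to 0.1535, Itgam -0.1644 to 0.03282, Itgax -0.3748 to 0.005209 and Cd44 -0.07672 to 0.03761. By genotype without stimulation, Itgax was -0.1696 to 0.3038, Itgb2 -0.1052 to 0.06314, Pecam1 -0.3295 to 1.065 and Cd47 -0.01943 to 0.07994. In the interaction, Itgam was -0.04978 to 0.1701 and Itgax -0.5573 to 0.03587. Counts of 0 to 174 limit Pecam1 most.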
